A study of Mus musculus with 12 samples.

Results

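Splicing factor and hnRNP genes were followed across 12 mouse cDNA arrays. Members were the genes whose single symbol in the probe-to-gene table began with one of the family stems Srsf, Hnrnp, Snrp, Sf3a, Sf3b, U2af, Prpf, Lsm with a digit, or Sart, older spellings (Sfrs, Hnrp) included. The rule used names only and no measured value. It gave 63 genes of the 8708 named genes on the array, read by 110 probes, and 28 of them had more than 1 probe. They were 8 SR proteins, 18 hnRNPs, 10 Sm and U snRNP proteins, 8 subunits of SF3a and SF3b, 9 PRPF genes, 8 LSM genes, and U2af1l4 and Sart3 alone in their families. All 12 arrays gave a value for 54 of the 63. A further 7 probes that carried several symbols matched the stems and were left out.

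Each array compared RNA of an experimental mouse group with RNA of B6 mice, and there were 6 groups of 2 arrays. Spleen T cells came from NOD mice, a strain that develops autoimmune diabetes, from NOD.H2h4 mice, NOD mice with a different MHC haplotype, and from B6.NODIdd1,5 mice, a B6 strain with the NOD diabetes intervals Idd1 and Idd5. Another group was kidney cells of B6.NODIdd1,5 mice set against B6 kidney cells. In the remaining groups, spleen T cells came from B6 recipients of NOD bone marrow (NODtoB6) and from NOD recipients of B6 bone marrow (B6toNOD). Conditioning of the recipients, donor share of the T cells, purification of the T cells, age and sex were not stated. B6 RNA was the second channel of every array and no dye-exchanged array is named. On the 8 strain arrays the experimental RNA was in Cy5. For the 4 marrow arrays no dye was stated, and the same direction was assumed. If they ran the other way, each NODtoB6 and B6toNOD sign below turns.

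Splicing removes introns from pre-mRNA. The U1, U2, U4, U5 and U6 snRNPs assemble on each intron, most of them built on a ring of Sm proteins, while U6 carries a ring of LSM proteins. SF3a and SF3b belong to the U2 snRNP and hold the branch site, and PRPF proteins build and rearrange the U4/U6.U5 tri-snRNP. SR proteins bind exons and mostly favour use of nearby splice sites, and hnRNPs coat pre-mRNA and often oppose them. In T cells the balance of these regulators sets isoforms such as those of CD45, which change when T cells are activated.

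Values are log2 ratios to B6 after each array was centred on its median, so 0 means the typical feature of that array. Paired values are replicates 1 and 2. A value with ± is the fitted group mean, or the difference of 2 group means, with its standard error (n = 2 arrays per group). A call means an adjusted p under 0.05 in limma, adjusted over all features tested in that comparison. A call that ended without an array did so with that array alone left out, and "without either" means that each of the 2 was left out in turn. The labels do not say that the 2 arrays of a group came from separate animals, so p-values cover no more than the spread among these arrays. Ratios show neither which gene is more abundant nor whether a labelled tissue expresses its markers. In these bulk samples, fewer cells of a type and less RNA per cell cannot be told apart.

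The 12 arrays gave values for 18837 to 20558 of 20736 probes. Pearson's r across features was 0.505 to 0.76 between the arrays of a group and -0.0215 to 0.447 between groups. Array medians as deposited ran from -0.88 on B6toNOD replicate 2 to -0.0087 on NOD replicate 1, so centring raised every value of an array by that amount. The spread of the features also differed, with a median absolute deviation of 0.195 on NOD replicate 1 and 0.614 on B6toNOD replicate 1. Of the fixed marker lists, 7 of 24 T cell genes, 7 of 17 B cell genes, 8 of 20 myeloid genes, 11 of 20 erythroid genes and 6 of 19 kidney genes were on the array.

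**Figure D1:**
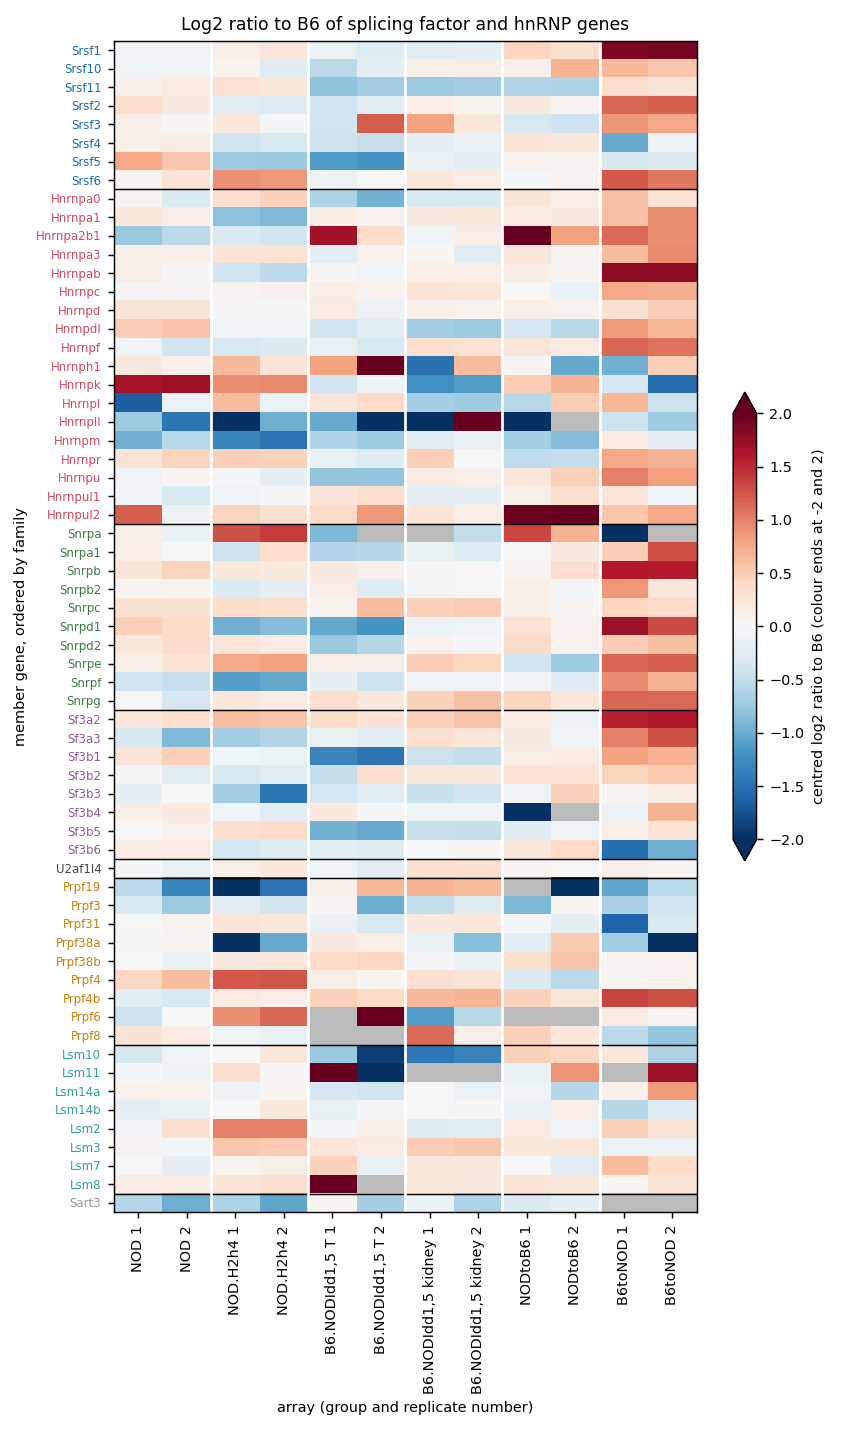
Centred log2 ratio to B6 of the 63 member genes (rows, ordered by family) on the 12 arrays (columns, by group and replicate). Colour runs from -2 (blue) to 2 (red) and grey marks no value; the 2 B6toNOD columns are the reddest, and most Sm and U snRNP rows are red there.

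The members were called most often in T cells of NOD mice that had received B6 marrow. Of 60 members tested in B6toNOD, 31 were higher, 8 were lower and 21 did not pass. That is 51.7% higher and 13.3% lower, against 28.5% higher and 22.9% lower of all features (51.4% either way) and 26.3% and 21.6% of named genes. The median member stood at 0.46 and the median named gene at -0.045. Values as deposited turned this split to 9 higher and 25 lower, and scaling the arrays to the same spread gave 22 higher and 2 lower. With every single array left out in turn, 22 of the 39 calls stayed. Srsf1 (1.89 ± 0.068), Hnrnpab (1.79 ± 0.069), Snrpb (1.59 ± 0.085), Sf3a2 (1.57 ± 0.083) and Snrpd1 (1.51 ± 0.11) were the 5 highest and were called as deposited, after scaling and with any 1 array left out. Of the myeloid list, 5 of 8 genes were also higher in B6toNOD and 1 lower, with a median of 2.04 and a range of -0.28 to 6.68. Of 10 erythroid genes tested, 5 were higher and 1 lower (median 0.56). The T cell list had 1 higher and 1 lower of 4 tested (median -0.16) and the B cell list 2 and 1 of 7 (median -0.45). The kidney list had 0 and 1 of 5 (median -0.59). Their part in the result was not tested.

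In B6.NODIdd1,5 T cells more members were lower than higher. Of 59 tested, 4 were higher, 12 lower and 43 did not pass, or 6.78% and 20.3%, against 14.4% and 15.9% of all features (30.3% either way) and 10.8% and 18.2% of named genes, so the share of lower calls was close to the background. Values as deposited gave 0 higher and 15 lower. Of the lower calls, Sf3b1 (-1.39 ± 0.077), Srsf5 (-1.15 ± 0.073), Snrpd1 (-1.11 ± 0.11) and Sf3b5 (-0.98 ± 0.074) were the 4 lowest that stayed as deposited, after scaling and with any 1 array left out, and Lsm10 (-1.31 ± 0.28) ended without T cell replicate 2. Lower calls there also covered 4 of 6 tested T cell markers (median -0.62) and 7 of 11 erythroid markers (median -0.48), with 1 erythroid marker higher. Of 7 myeloid markers 3 were lower and 2 higher, of 6 kidney markers 2 in each direction and of 5 B cell markers 1 in each direction. Their part in the result was not tested.

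In NOD.H2h4 T cells, 15 of 63 members were higher and 13 lower, with 35 not past. These shares, 23.8% and 20.6%, stood beside 24.1% and 15.4% of all features (39.5% either way) and 15.5% and 18.5% of named genes. As deposited the split was 1 higher and 44 lower, and it was 10 and 14 after a running median along the probe order was subtracted. Without either NOD.H2h4 array 15 calls were left. Prpf4 (1.24 ± 0.088) and Lsm2 (1.0 ± 0.12) were the highest of the calls kept with any 1 array left out, and Prpf19 (-1.79 ± 0.26) and Hnrnpm (-1.39 ± 0.12) the lowest, though Lsm2 was no longer called as deposited. Of the myeloid list 5 of 8 genes were higher and 1 lower (median 0.56), of the erythroid list 5 of 10 higher and 1 lower (median 0.27), of the B cell list 2 of 7 in each direction, and of the kidney list 4 of 6 lower (median -0.51). Their part was not tested.

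NOD T cells gave the fewest calls. Of 63 members, 7 were higher, 3 lower and 53 did not pass, or 11.1% and 4.76%, against 9.79% and 2.46% of all features (12.2% either way) and 5.56% and 2.28% of named genes. As deposited there was 1 call, lower. Without either NOD array 3 calls were left, and 6 without either NOD.H2h4 array or either kidney array. Srsf5 (0.64 ± 0.073) was the call that stayed with each array left out, and it was not called as deposited. Of the markers, 5 of 8 myeloid genes (median 0.56) and 5 of 11 erythroid genes (median 1.16) were higher and 1 erythroid gene lower, and 3 of 6 B cell genes were higher (median 0.28), whose part was not tested.

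In B6.NODIdd1,5 kidney, 10 of 61 members were higher and 7 lower, with 44 not past. The shares of 16.4% and 11.5% stood beside 22.4% and 11.1% of all features (33.5% either way) and 14.1% and 11.9% of named genes. As deposited the split was 0 higher and 27 lower, and without either kidney array 8 calls were left. Hnrnpdl (-0.71 ± 0.086), Srsf11 (-0.71 ± 0.067) and Sf3b5 (-0.47 ± 0.074) were lower and Prpf4b (0.66 ± 0.074) and Lsm3 (0.51 ± 0.064) higher with any 1 array left out, the higher ones not as deposited. Of the kidney markers 2 of 6 were higher (median 0.50), of the T cell markers 3 of 7 lower (median -0.66), and of the myeloid markers 3 of 8 higher and 1 lower (median 0.068). Their part was not tested.

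In NODtoB6 T cells, 9 of 59 members were higher, 6 lower and 44 did not pass. The shares of 15.3% and 10.2% stood beside 13.8% and 13.1% of all features (26.8% either way) and 12.9% and 12.4% of named genes. As deposited the split was 2 higher and 7 lower, and without NODtoB6 replicate 2 there were 7 calls. Hnrnpul2 (2.03 ± 0.27) and Srsf11 (-0.60 ± 0.067) stayed with each array left out. Of the erythroid list 7 of 10 genes were higher (median 1.37) and of the myeloid list 5 of 8, with 1 lower (median 1.07), whose part was not tested.

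Differences between groups were fitted directly. Of the 4 differences, the one between the marrow groups held the most called members. In NODtoB6 minus B6toNOD, 7 of 56 members were higher and 25 lower, or 12.5% and 44.6%, against 13.8% and 22.2% of all features (36% either way) and 12.2% and 20.7% of named genes. Their median was -0.41, and -0.022 over named genes. As deposited the split was 11 higher and 9 lower, and with the NODtoB6 arrays turned it was 4 and 29. In B6.NODIdd1,5 T cells minus NOD, 4 of 59 were higher and 13 lower (6.78% and 22%), beside 9.41% and 14.9% of all features (24.3% either way) and 7.85% and 14.7% of named genes, with 1 and 9 as deposited. In B6.NODIdd1,5 T cells minus kidney, which also differ in tissue and in the B6 RNA of the second channel, 3 of 58 were higher and 10 lower (5.17% and 17.2%), beside 6.9% and 14.1% of all features (21% either way) and 6.29% and 10.5% of named genes. As deposited there was 1 call, 8 were left without either T cell array, 5 without kidney replicate 1 and 6 without kidney replicate 2. In NOD.H2h4 minus NOD, 8 of 63 were higher and 10 lower (12.7% and 15.9%), beside 12% and 6.22% of all features (18.2% either way) and 7.1% and 6.95% of named genes. That split was 0 and 23 as deposited and 2 and 9 after scaling, and without either NOD array 8 calls were left, or 5 without either NOD.H2h4 array.

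Marker lists moved in these differences too. In NODtoB6 minus B6toNOD, 6 of 9 erythroid genes were higher (median 1.10) and 4 of 8 myeloid genes lower (median -0.94). In B6.NODIdd1,5 T cells minus NOD, 6 of 11 erythroid (median -1.2), 3 of 6 T cell (median -1.06) and 3 of 7 myeloid genes (median -0.33) were lower. In the T cells minus kidney, 5 of 11 erythroid genes (median -0.56), 2 of 7 myeloid genes and 2 of 6 kidney genes were lower, and in NOD.H2h4 minus NOD 4 of 10 erythroid genes (median -0.88). Their part in the differences was not tested.

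**Figure D2:**
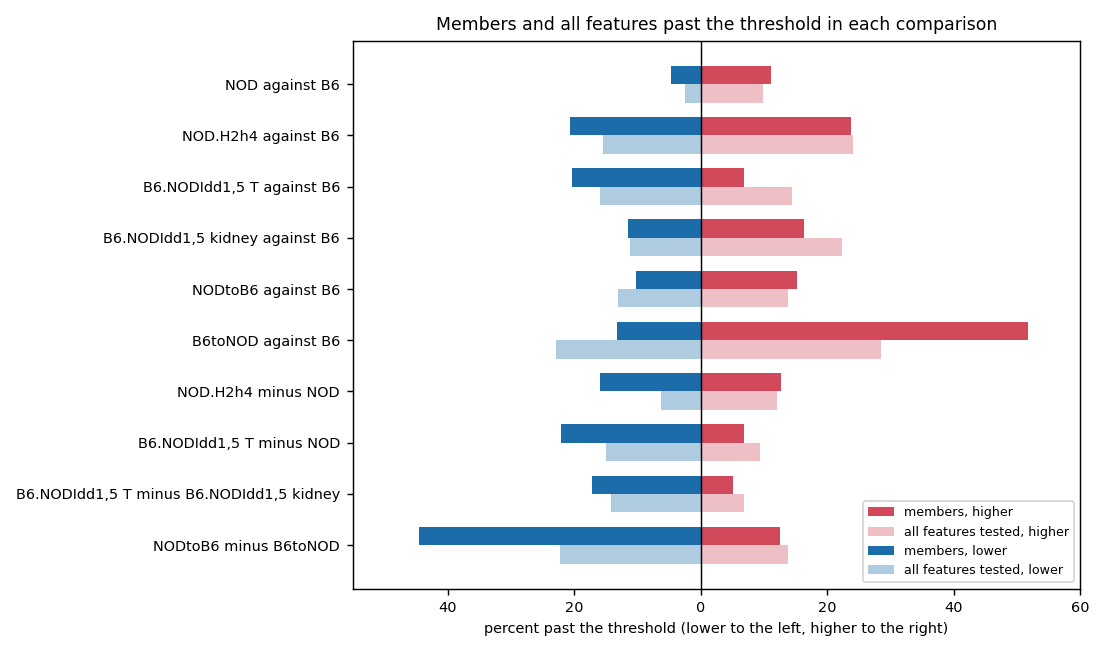
Percent of members (full colour) and of all features tested (pale) called lower (left, blue) and higher (right, red) in each of the 10 comparisons, at an adjusted p under 0.05 in limma. The higher bar of B6toNOD reaches 51.7% for members and 28.5% for all features, and in NODtoB6 minus B6toNOD the lower bar reaches 44.6% and 22.2%.

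The promoters of 5 members are shown because these genes are among the 5 highest in B6toNOD (Srsf1, Hnrnpab, Sf3a2) or had the largest lower calls in B6.NODIdd1,5 T cells that stayed with any 1 array left out (Sf3b1, Srsf5). Each is the 250 bases before the gene's start in RefSeq (GRCm38.p6), written 5' to 3' along the gene's strand. They lie at chr11:88047123-88047372 on the plus strand (Srsf1), chr11:51606882-51607131 on the minus strand (Hnrnpab), chr10:80798485-80798734 on the plus strand (Sf3a2), chr1:55027479-55027728 on the minus strand (Sf3b1) and chr12:80945249-80945498 on the plus strand (Srsf5). Capitals mark matches, on either strand, of the motifs searched, which are the ETS core (CGGAAG), the GC box (CCGCCC), the CCAAT box (CCAAT), the TATA box (TATAAA) and an NRF1-type repeat.
Srsf1: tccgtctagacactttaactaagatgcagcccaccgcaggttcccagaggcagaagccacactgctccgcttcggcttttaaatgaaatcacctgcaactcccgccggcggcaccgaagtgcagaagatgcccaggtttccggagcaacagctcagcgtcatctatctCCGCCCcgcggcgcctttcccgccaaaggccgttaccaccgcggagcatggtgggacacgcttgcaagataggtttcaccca
Hnrnpab: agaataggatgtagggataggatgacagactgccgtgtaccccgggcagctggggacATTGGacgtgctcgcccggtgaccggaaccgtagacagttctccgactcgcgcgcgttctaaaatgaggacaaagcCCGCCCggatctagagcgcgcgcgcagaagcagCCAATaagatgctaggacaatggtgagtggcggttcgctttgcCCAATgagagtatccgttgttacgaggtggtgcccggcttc
Sf3a2: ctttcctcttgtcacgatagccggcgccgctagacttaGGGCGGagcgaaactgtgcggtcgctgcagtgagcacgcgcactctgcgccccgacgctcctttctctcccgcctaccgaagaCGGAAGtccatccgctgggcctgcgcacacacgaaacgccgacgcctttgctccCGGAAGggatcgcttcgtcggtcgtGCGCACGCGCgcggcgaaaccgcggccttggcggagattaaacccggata
Sf3b1: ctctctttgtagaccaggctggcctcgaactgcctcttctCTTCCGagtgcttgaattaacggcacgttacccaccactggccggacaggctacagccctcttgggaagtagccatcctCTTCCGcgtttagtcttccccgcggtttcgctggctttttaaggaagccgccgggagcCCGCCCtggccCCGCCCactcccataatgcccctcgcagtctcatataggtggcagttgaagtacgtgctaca
Srsf5: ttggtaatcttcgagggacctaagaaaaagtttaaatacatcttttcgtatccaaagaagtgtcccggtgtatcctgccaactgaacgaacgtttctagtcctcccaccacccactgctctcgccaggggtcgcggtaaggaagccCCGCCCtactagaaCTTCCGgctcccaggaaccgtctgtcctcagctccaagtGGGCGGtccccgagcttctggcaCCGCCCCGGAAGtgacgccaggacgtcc
Sf3a2, Sf3b1 and Srsf5 each held 2 matches of CGGAAG, Hnrnpab held 3 of CCAAT, and Srsf1 held 1 of CCGCCC and none of the others. A promoter was listed for 56 of the 63 members, 74 promoters in all. CGGAAG was found in 50% of these and in 13.6% of all 32851 mouse promoters in the table, CCGCCC in 62.2% and 32.7%, CCAAT in 44.6% and 33.8%, TATAAA in 6.76% and 12.4%, and the NRF1-type repeat in 20.3% and 3.74%. The table also lists promoters of non-coding and predicted genes. These matches describe the letters of the windows, and no binding was measured.

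SR proteins were called in both directions in 3 of the 6 groups, and in 1 as deposited. In B6toNOD 5 of 8 were higher and 2 lower (median 0.72), in B6.NODIdd1,5 T cells 0 were higher and 3 lower (median -0.33), and in the other 4 groups at most 2 passed in each direction. As deposited the B6toNOD split was 3 and 3. Srsf1, the first SR protein described and a general activator of splice sites, read -0.076 and -0.084 in NOD, 0.13 and 0.22 in NOD.H2h4, -0.11 and -0.24 in B6.NODIdd1,5 T cells, -0.21 and -0.20 in B6.NODIdd1,5 kidney, 0.43 and 0.33 in NODtoB6 and 1.87 and 1.91 in B6toNOD. Both B6toNOD arrays lay above the other 10, which lay between -0.24 and 0.43. The B6toNOD mean of 1.89 ± 0.068 (adjusted p = 3.05e-06) was the largest of any member, and NODtoB6 was -1.51 ± 0.095 against it (adjusted p = 8.63e-05).

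Srsf5, an SR protein induced by growth signals, read 0.76 and 0.53 in NOD, -0.73 and -0.74 in NOD.H2h4, -1.13 and -1.18 in B6.NODIdd1,5 T cells, -0.13 and -0.20 in B6.NODIdd1,5 kidney, 0.093 and 0.069 in NODtoB6 and -0.33 and -0.28 in B6toNOD. NOD lay above 0 on both arrays and NOD.H2h4 and B6.NODIdd1,5 T cells below it, with no overlap between these 3 groups. Its means were 0.64 ± 0.073 (adjusted p = 0.00338) in NOD, -0.73 ± 0.073 (adjusted p = 0.000244) in NOD.H2h4 and -1.15 ± 0.073 (adjusted p = 5.98e-05) in B6.NODIdd1,5 T cells. The differences from NOD were -1.38 ± 0.10 (adjusted p = 0.000976) and -1.80 ± 0.10 (adjusted p = 5.48e-05). B6.NODIdd1,5 kidney read near 0, and T cells minus kidney was -0.99 ± 0.10 (adjusted p = 0.000852), a difference not called as deposited.

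Srsf11, which works with the U2AF and U1 machinery at splice sites, read 0.10 and 0.17 in NOD, 0.29 and 0.23 in NOD.H2h4, -0.80 and -0.69 in B6.NODIdd1,5 T cells, -0.72 and -0.70 in B6.NODIdd1,5 kidney, -0.58 and -0.61 in NODtoB6 and 0.35 and 0.25 in B6toNOD. The 4 B6.NODIdd1,5 arrays and the 2 NODtoB6 arrays lay between -0.80 and -0.58, below the other 6. Its means there were -0.75 ± 0.067 in T cells, -0.71 ± 0.067 in kidney and -0.60 ± 0.067 in NODtoB6, each called with any 1 array left out. It was called higher in NOD.H2h4 (0.26 ± 0.067), but its 3 probes there were called in both directions (0.70, -0.53 and 0.64), the call ended without either NOD.H2h4 array, and as deposited the gene was at -0.54.

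Srsf2 (SC35), whose protein marks nuclear speckles, read 1.15 and 1.19 in B6toNOD and between -0.38 and 0.34 on the other 10 arrays. Its B6toNOD mean was 1.17 ± 0.077 (adjusted p = 2.15e-05), and both of its probes were higher there (1.23 and 1.06). Srsf2 was called lower in 2 groups, among them B6.NODIdd1,5 T cells (-0.30 ± 0.077, adjusted p = 0.0232). Against NOD these T cells were at -0.56 ± 0.11 (adjusted p = 0.0102) and NOD.H2h4 at -0.50 ± 0.11 (adjusted p = 0.0194). Srsf6 read 0.92 and 0.86 in NOD.H2h4 and 1.23 and 1.05 in B6toNOD, above the other 8 arrays, which ended at 0.27. Its means were 0.89 ± 0.083 (adjusted p = 0.000189) and 1.14 ± 0.083 (adjusted p = 3.36e-05), the first not called as deposited. Srsf10, a repressor of splicing when dephosphorylated, was at 0.61 ± 0.15 in B6toNOD and at -0.15 there as deposited, and its call ended without either B6toNOD array and after scaling. Srsf4 had the smallest range of group means among SR proteins (0.80). Even so, Srsf4 was called lower in B6toNOD (-0.56 ± 0.18, adjusted p = 0.0313), where its arrays read -1.006 and -0.115 and its probes -1.22 and 0.048. Srsf3 was called in no group, with group means from -0.36 to 0.83.

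**Figure D3:**
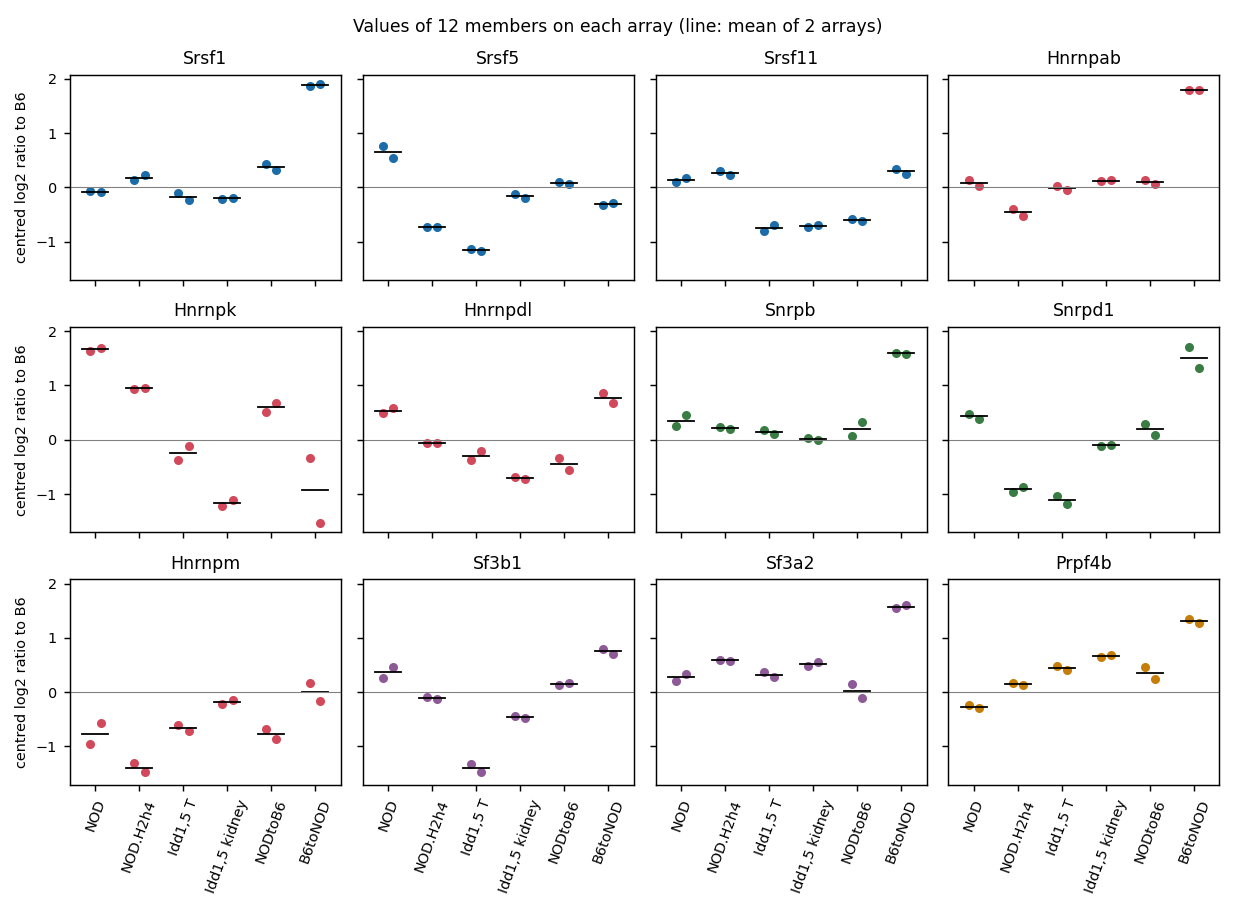
Centred log2 ratio to B6 (vertical axis) of 12 members on each array by group (horizontal axis), with points for the 2 arrays and a line for their mean. Srsf1, Hnrnpab and Snrpb stand near 1.6 to 1.9 in B6toNOD alone, and Srsf5, Snrpd1 and Sf3b1 fall to between -1.46 and -1.03 in B6.NODIdd1,5 T cells.

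Among hnRNPs, 10 of 18 were higher and 1 lower in B6toNOD (median 0.70), a split of 1 and 4 as deposited. In the other groups 1 to 3 members were higher and 1 to 4 lower. Hnrnpab, which binds single-stranded nucleic acid and takes part in mRNA transport and transcription, read 0.13 and 0.023 in NOD, -0.40 and -0.53 in NOD.H2h4, 0.031 and -0.057 in B6.NODIdd1,5 T cells, 0.12 and 0.13 in B6.NODIdd1,5 kidney, 0.14 and 0.058 in NODtoB6 and 1.79 and 1.79 in B6toNOD. The 2 B6toNOD values lay above all others. Its mean of 1.79 ± 0.069 (adjusted p = 3.65e-06) was 3.46-fold over B6 on the linear scale, and NODtoB6 was -1.69 ± 0.098 (adjusted p = 7.47e-05) against it.

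Hnrnpa1, the archetypal repressor that competes with Srsf1 at splice sites, read -0.82 and -0.89 in NOD.H2h4 and between 0.088 and 0.93 on the other 10 arrays, so NOD.H2h4 did not overlap with any group. Its mean there was -0.86 ± 0.087 (adjusted p = 0.000265) and the difference from NOD was -1.03 ± 0.12 (adjusted p = 0.00302). Of its 4 probes, 3 were lower in NOD.H2h4 (-1.11, -1.33 and -1.58) and 1 read 0.63 and did not pass. Its B6toNOD value was 0.76 ± 0.087 after centring and 0 as deposited, with no call.

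Hnrnpm read -0.96 and -0.56 in NOD, -1.31 and -1.47 in NOD.H2h4, -0.61 and -0.72 in B6.NODIdd1,5 T cells, -0.22 and -0.14 in B6.NODIdd1,5 kidney, -0.68 and -0.86 in NODtoB6 and 0.16 and -0.17 in B6toNOD. The 8 T cell arrays other than those of B6toNOD lay at or below -0.56, and both kidney arrays and B6toNOD were nearer 0. It was lower in 4 of 6 groups, as were 1.47% of named genes, or in 3 with the NODtoB6 arrays turned. The NOD.H2h4 value of -1.39 ± 0.12 (adjusted p = 0.000153) stayed with any 1 array left out. The values of -0.76 ± 0.12 in NOD, -0.77 ± 0.12 in NODtoB6 and -0.66 ± 0.12 in B6.NODIdd1,5 T cells lost their call without NOD replicate 1, NODtoB6 replicate 2 and T cell replicate 2, respectively.

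Hnrnpk, which binds cytosine-rich RNA and DNA, read 1.64 and 1.69 in NOD, 0.94 and 0.95 in NOD.H2h4, -0.38 and -0.12 in B6.NODIdd1,5 T cells, -1.23 and -1.11 in B6.NODIdd1,5 kidney, 0.51 and 0.68 in NODtoB6 and -0.33 and -1.53 in B6toNOD. NOD was the highest group, NOD.H2h4 next, and kidney and B6toNOD replicate 2 the lowest. The mean of 1.67 ± 0.24 (adjusted p = 0.00684) in NOD was the largest of any member there, and B6.NODIdd1,5 T cells were -1.91 ± 0.33 (adjusted p = 0.00691) against NOD, a difference that stayed with any 1 array left out. The NOD call ended without either NOD array, the NOD.H2h4 call without either NOD.H2h4 array and the kidney call (-1.17 ± 0.24) without either kidney array. The B6toNOD call (-0.93 ± 0.24) ended without replicate 2, where the value was -0.33.

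Hnrnpdl read 0.49 and 0.58 in NOD, -0.064 and -0.053 in NOD.H2h4, -0.38 and -0.21 in B6.NODIdd1,5 T cells, -0.69 and -0.73 in B6.NODIdd1,5 kidney, -0.34 and -0.56 in NODtoB6 and 0.86 and 0.67 in B6toNOD. It was called higher in NOD and B6toNOD and lower in both B6.NODIdd1,5 groups and NODtoB6. The kidney value of -0.71 ± 0.086 (adjusted p = 0.000947) and the differences of -0.83 ± 0.12 (adjusted p = 0.00341) for B6.NODIdd1,5 T cells minus NOD and -1.21 ± 0.12 (adjusted p = 0.000327) for NODtoB6 minus B6toNOD stayed with any 1 array left out. The NOD call (0.53 ± 0.086) ended without either NOD array, the NODtoB6 call (-0.45 ± 0.086) without NODtoB6 replicate 2, and the T cell call (-0.29 ± 0.086) when any 1 of the 8 strain arrays was left out.

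Hnrnpu, a nuclear scaffold protein that binds RNA and chromatin, read -0.79 and -0.79 in B6.NODIdd1,5 T cells, 0.15 and 0.10 in kidney and 1.0 and 0.83 in B6toNOD. The T cell arrays were below the other 10. The T cell mean was -0.79 ± 0.088 (adjusted p = 0.000654), and it was -0.91 ± 0.12 (adjusted p = 0.00243) against kidney, though not as deposited. All 3 Hnrnpu probes were higher in B6toNOD (0.61, 0.42 and 1.63). Hnrnpa0 was also lower in B6.NODIdd1,5 T cells (-0.78 ± 0.12, adjusted p = 0.00297). Hnrnpul2 read 1.97 and 2.09 in NODtoB6, and the mean of 2.03 ± 0.27 (adjusted p = 0.00228) was the largest member value in that group. Hnrnpa2b1 was also higher there (1.53 ± 0.37, adjusted p = 0.0222), but its arrays read 2.26 and 0.81 and its probes ran from 0.40 to 2.71. Hnrnpul1 was higher in B6.NODIdd1,5 T cells (0.31 ± 0.097, adjusted p = 0.0495).

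Hnrnpr was at -0.49 ± 0.11 in NODtoB6 and 0.74 ± 0.11 in B6toNOD, and the difference was -1.23 ± 0.16 (adjusted p = 0.000946). The NODtoB6 call ended without either of its arrays, and as deposited the B6toNOD value was -0.019. Hnrnpf was 1.12 ± 0.086 (adjusted p = 4.14e-05) in B6toNOD and was not called as deposited. Hnrnpd had the smallest range of group means among hnRNPs (0.41). Hnrnpll, which controls CD45 exons in activated T cells, had the largest (3.21) but passed in no group; its arrays disagreed, with readings of -2.21 and 4.09 in kidney and -3.55 and -0.98 in NOD.H2h4.

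Sm and U snRNP proteins, the shared core of the spliceosomal snRNPs, were higher in B6toNOD for 9 of 9 tested members after centring (median 0.89), for 7 of 9 after scaling and for 8 of 9 after subtraction of the running median. As deposited 3 were higher and 0 lower, 6 of 9 lay above 0 and the median was 0.12. The 9 included Sm ring proteins (Snrpb, Snrpd1, Snrpd2, Snrpe, Snrpf, Snrpg), the U1 protein Snrpc and the U2 proteins Snrpa1 and Snrpb2. The member not tested there, Snrpa, went the other way, at -2.415 on B6toNOD replicate 1 with no value on replicate 2. The signs of Snrpb2, Snrpc and Snrpd2 turned as deposited. The Snrpc call ended without either B6toNOD array, that of Snrpa1 without replicate 2 and that of Snrpb2 without replicate 1. In the other groups 0 to 3 members were higher and 0 to 2 lower.

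Snrpb, which encodes SmB, read 1.60 and 1.58 in B6toNOD and between -0.0060 and 0.45 on the other 10 arrays. The mean was 1.59 ± 0.085 (adjusted p = 1.01e-05) in B6toNOD, 3.02-fold on the linear scale, and NODtoB6 was -1.39 ± 0.12 (adjusted p = 0.000189) against it. Snrpe (SmE) read 0.12 and 0.28 in NOD, 0.76 and 0.81 in NOD.H2h4, 0.13 and 0.11 in B6.NODIdd1,5 T cells, 0.49 and 0.43 in B6.NODIdd1,5 kidney, -0.36 and -0.73 in NODtoB6 and 1.14 and 1.18 in B6toNOD. It was higher in NOD.H2h4 (0.78 ± 0.095, adjusted p = 0.000579), kidney (0.46 ± 0.095, adjusted p = 0.00831) and B6toNOD (1.16 ± 0.095, adjusted p = 5.39e-05) and lower in NODtoB6 (-0.55 ± 0.095, adjusted p = 0.00663). The kidney call ended without either kidney array and as deposited. The NODtoB6 call ended without its replicate 2, the NOD.H2h4 value was -0.019 as deposited, and the difference between the marrow groups was -1.71 ± 0.13 (adjusted p = 0.000143). Snrpg (SmG) was 1.14 ± 0.10 (adjusted p = 7.41e-05) in B6toNOD, with a lost call as deposited.

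Snrpd1 (SmD1) had the largest range of group means in its family (2.62). It read 0.48 and 0.39 in NOD, -0.96 and -0.87 in NOD.H2h4, -1.03 and -1.19 in B6.NODIdd1,5 T cells, -0.12 and -0.091 in B6.NODIdd1,5 kidney, 0.29 and 0.091 in NODtoB6 and 1.71 and 1.31 in B6toNOD. NOD.H2h4 and B6.NODIdd1,5 T cells lay below every other array and B6toNOD above every other. Its means were -0.91 ± 0.11 (adjusted p = 0.000492) in NOD.H2h4, -1.11 ± 0.11 (adjusted p = 0.000353) in B6.NODIdd1,5 T cells and 1.51 ± 0.11 (adjusted p = 2.94e-05) in B6toNOD. Against NOD the first 2 were -1.35 ± 0.15 (adjusted p = 0.00261) and -1.54 ± 0.15 (adjusted p = 0.000596), and T cells minus kidney was -1.01 ± 0.15 (adjusted p = 0.00361), the last not called as deposited. The NOD call of 0.43 ± 0.11 ended when any 1 of the 8 strain arrays was left out.

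Snrpd2 (SmD2), which pairs with SmD1 in the ring, was also lower in B6.NODIdd1,5 T cells (-0.65 ± 0.097, adjusted p = 0.00230) and read -0.74 and -0.56, while kidney read 0.093 and -0.035. Snrpf (SmF) was lower in NOD.H2h4 (-1.06 ± 0.095, adjusted p = 0.000157) with readings of -1.09 and -1.03, below every other array. In NOD.H2h4 Snrpd1 and Snrpf were thus lower and Snrpe higher (-0.019 as deposited). Snrpa, a protein of the U1 snRNP, had values on both arrays only in NOD, NOD.H2h4 and NODtoB6. It was 1.33 ± 0.18 in NOD.H2h4, a call that ended without either NOD.H2h4 array. Snrpc had the smallest range of group means in the family (0.40).

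SF3a and SF3b, the branch site complexes, were called in B6.NODIdd1,5 T cells for 2 lower and 1 higher of 8 members, and in B6toNOD 4 were higher and 1 lower (median 0.39; 1 and 4 as deposited). Sf3b1, the large subunit that grips the branch site helix, read 0.27 and 0.47 in NOD, -0.089 and -0.12 in NOD.H2h4, -1.32 and -1.47 in B6.NODIdd1,5 T cells, -0.43 and -0.48 in B6.NODIdd1,5 kidney, 0.14 and 0.17 in NODtoB6 and 0.80 and 0.70 in B6toNOD. Both T cell arrays of B6.NODIdd1,5 lay far below the other 10, and kidney of the same strain lay next. The T cell mean was -1.39 ± 0.077 (adjusted p = 3.55e-05), against NOD it was -1.76 ± 0.11 (adjusted p = 7.49e-05), and against kidney -0.94 ± 0.11 (adjusted p = 0.00130). Both probes of Sf3b1 were lower in these T cells (-1.80 and -0.96). The kidney value was -0.45 ± 0.077 (adjusted p = 0.00358), a call that ended without kidney replicate 2. In B6toNOD the value was 0.75 ± 0.077 after centring and -0.011 as deposited.

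Sf3b5, a small subunit of SF3b, read -0.94 and -1.01 in B6.NODIdd1,5 T cells, -0.46 and -0.48 in kidney and between -0.24 and 0.37 in the other groups. The T cell mean was -0.98 ± 0.074 (adjusted p = 0.000123) and the kidney mean -0.47 ± 0.074 (adjusted p = 0.00269). Sf3b6 (p14), which touches the branch site adenosine, was instead lower in B6toNOD, at -1.51 and -0.96 on its arrays, below the other 10. Its mean was -1.24 ± 0.12 (adjusted p = 0.000141), and NODtoB6 was 1.54 ± 0.17 (adjusted p = 0.000541) against it.

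Sf3a2, a subunit of SF3a, read 0.21 and 0.33 in NOD, 0.60 and 0.57 in NOD.H2h4, 0.37 and 0.27 in B6.NODIdd1,5 T cells, 0.47 and 0.56 in B6.NODIdd1,5 kidney, 0.15 and -0.11 in NODtoB6 and 1.54 and 1.60 in B6toNOD. It lay above 0 on 11 of 12 arrays, and B6toNOD was above all others. It was called higher in 4 of 6 groups, as were 3.92% of named genes, or in 3 with the B6toNOD arrays turned. Besides 1.57 ± 0.083 (adjusted p = 9.68e-06) in B6toNOD, it was 0.59 ± 0.083 in NOD.H2h4, 0.52 ± 0.083 in kidney and 0.32 ± 0.083 in B6.NODIdd1,5 T cells. The T cell call ended without either T cell array and the kidney call without kidney replicate 2. As deposited the B6toNOD call alone stayed, and the NOD.H2h4 value was -0.22. Sf3a3 was 1.14 ± 0.14 (adjusted p = 0.000365) in B6toNOD, not called as deposited, and -0.64 ± 0.14 in NOD.H2h4, a call that ended without either of its arrays. Sf3b3 read -0.69 and -1.45 in NOD.H2h4 (-1.07 ± 0.19, adjusted p = 0.00328), and without replicate 2 it was at -0.69, still called. Sf3b4 had the smallest range of group means (0.44), taken over groups with a value on both arrays, and was called in no group. Outside that range, it read -3.64 on NODtoB6 replicate 1, and replicate 2 had no value. U2af1l4, a relative of the small U2AF subunit that reads the end of the intron, was 0.32 ± 0.070 in kidney, a call that ended without either kidney array, and -0.14 as deposited.

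**Figure D4:**
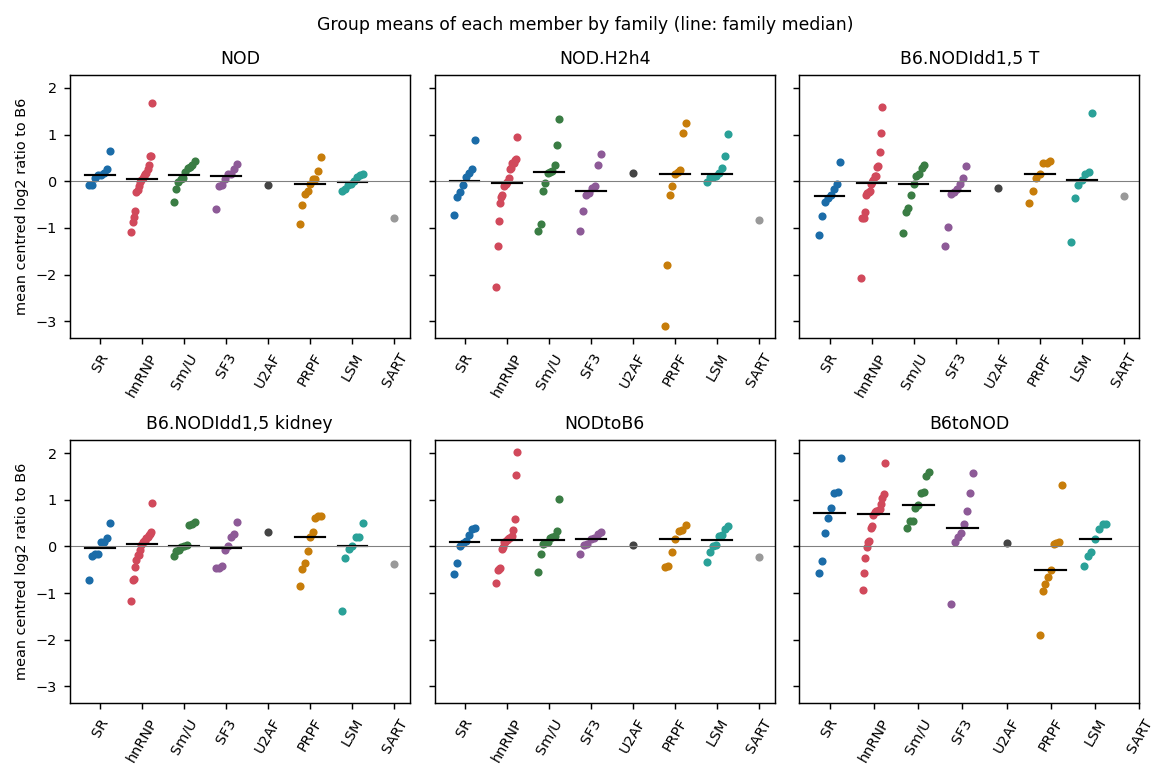
Mean centred log2 ratio to B6 (vertical axis) of each member with a value on both arrays, by family (horizontal axis) in each of the 6 groups, with black lines for family medians. In B6toNOD the Sm and U snRNP median is 0.89 and the PRPF median -0.51, and in the other groups family medians lie between -0.33 and 0.32 apart from the single SART gene.

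PRPF genes had the one negative family median in B6toNOD after centring (-0.51), with 1 of 9 higher and 3 lower, or 1 and 8 as deposited. Each lower call ended when an array was left out. Prpf31 (-0.95 ± 0.25) ended without B6toNOD replicate 1, where it was then -0.30, Prpf19 (-0.80 ± 0.26) without either B6toNOD or either kidney array, and Prpf8 (-0.66 ± 0.22) when any 1 of 8 arrays (NOD, NOD.H2h4, NODtoB6 and B6toNOD) was left out. The last 2 also ended after scaling. Prpf8 is the core of the U5 snRNP, Prpf31 holds U4/U6 and Prpf19 is the ubiquitin ligase of the complex that activates the spliceosome.

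Prpf4b, a kinase of the tri-snRNP and the PRPF gene called higher in B6toNOD, read -0.23 and -0.30 in NOD, 0.17 and 0.13 in NOD.H2h4, 0.48 and 0.41 in B6.NODIdd1,5 T cells, 0.64 and 0.68 in B6.NODIdd1,5 kidney, 0.46 and 0.25 in NODtoB6 and 1.35 and 1.27 in B6toNOD. NOD was the lowest group and B6toNOD the highest, with no overlap with the rest. It was called higher in 4 groups, 2 of them marrow groups of assumed direction, at 0.44 ± 0.074 (adjusted p = 0.00396) in B6.NODIdd1,5 T cells, 0.66 ± 0.074 (adjusted p = 0.000695) in kidney, 0.35 ± 0.074 in NODtoB6 and 1.31 ± 0.074 (adjusted p = 1.17e-05) in B6toNOD. Of these, B6toNOD was called as deposited, and the NODtoB6 call ended without NODtoB6 replicate 1. B6.NODIdd1,5 T cells were 0.71 ± 0.10 (adjusted p = 0.00344) against NOD.

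Prpf4, a U4/U6 protein, read 1.23 and 1.26 in NOD.H2h4, above the other 10 arrays, which ended at 0.62. The mean was 1.24 ± 0.088 (adjusted p = 7.98e-05). Prpf4 was also called higher in NOD (0.52 ± 0.088, adjusted p = 0.0109) and kidney (0.31 ± 0.088, adjusted p = 0.0317). In NODtoB6 it was called lower (-0.41 ± 0.088, adjusted p = 0.0145). Each of these further calls ended when some single array was left out. Prpf19 read -2.11 and -1.48 in NOD.H2h4 (-1.79 ± 0.26, adjusted p = 0.00213), and one NODtoB6 array read -3.27 and the other had no value. Prpf6, which bridges U5 and U4/U6, was 1.04 ± 0.18 in NOD.H2h4 and -0.84 ± 0.18 in kidney, and these calls ended without NOD.H2h4 replicate 2 and kidney replicate 1. Prpf38a had the largest range of group means of all members (3.27), but its NOD.H2h4 arrays read -5.20 and -1.01, and the call (-3.11 ± 0.91) ended without NOD.H2h4 replicate 1 or either NOD array. Prpf38b was 0.46 ± 0.077 in NODtoB6 although its probes there read in opposite directions, by 2.78 between the lowest and the highest, and the call ended without NODtoB6 replicate 2. Prpf3 had the smallest range (0.22), with group means from -0.52 to -0.30, and passed in no group.

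Among LSM genes, in B6toNOD 2 of 7 were higher and 1 lower, and in NOD.H2h4 3 of 8 were higher and 0 lower. As deposited both splits turned, to 0 higher and 5 lower in B6toNOD and 0 and 4 in NOD.H2h4. Lsm2, part of the U6 ring and of the cytoplasmic ring that promotes mRNA decay, read 1.01 and 1.0 in NOD.H2h4, above the other 10 arrays, with a mean of 1.0 ± 0.12 (adjusted p = 0.000468). Lsm3, another ring member, was higher in NOD.H2h4 (0.53 ± 0.064, adjusted p = 0.000564) and kidney (0.51 ± 0.064, adjusted p = 0.00107), and the NOD.H2h4 value was -0.27 as deposited. Lsm10, part of the U7 snRNP that trims histone mRNA, read -1.43 and -1.34 in kidney and -0.74 and -1.88 in T cells of B6.NODIdd1,5 mice. These 4 arrays were the lowest of the 12. The means were -1.38 ± 0.28 and -1.31 ± 0.28, and the calls ended without either kidney array and without T cell replicate 2. Its U7 partner Lsm11 read 4.92 and -2.01 in the same T cells and passed in no group. Lsm14b was the LSM gene called lower in B6toNOD (-0.41 ± 0.105, adjusted p = 0.0139), with readings of -0.57 and -0.25. Lsm8, which makes the ring specific to U6, had the smallest range of group means (0.12), taken over groups with a value on both arrays. Outside that range, it read 2.21 on B6.NODIdd1,5 T cell replicate 1, and replicate 2 had no value. Sart3, which helps rejoin U4 and U6 after splicing, had values in 5 groups, below 0 on all but 1 of those 10 arrays, and was -0.83 ± 0.21 in NOD.H2h4, a call that ended without either NOD.H2h4 array.

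Across the 6 groups, 8 of 63 members (Srsf3, Hnrnph1, Hnrnpl, Hnrnpll, Sf3b4, Prpf3, Lsm11 and Lsm14a) were called in none, beside 26.6% of named genes. A further 24 had only higher calls, 11 only lower calls and 20 calls in both directions, beside 22.3%, 30.5% and 20.6% of named genes. These counts depend on the direction assumed for the marrow arrays. With both marrow groups turned they were 9, 21 and 25 (20%, 22.8% and 30.5% of named genes). With NODtoB6 alone turned they were 19, 12 and 24 (20.2%, 26.4% and 26.7% of named genes). With B6toNOD alone turned they were 13, 18 and 24 (19%, 23.2% and 31.2% of named genes). Lower in 4 groups was Hnrnpm alone as assumed, no member with NODtoB6 or both turned, and Hnrnpdl, Hnrnpm and Srsf11 with B6toNOD turned. None was called in all 6. The groups share the B6 design, so these patterns across groups carry no test.

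Where a gene had several probes they did not always agree. Of 45 calls of such genes in the 6 groups, all probes had the same sign in 34. In 11 of 157 pairs of a gene and a group, 1 or more probes were called higher and 1 or more lower. Hnrnpc in B6.NODIdd1,5 T cells was one, with probes at -1.39, 1.17, 0.50 and 0.21 and a gene value of 0.11 ± 0.066 that did not pass. The median gap between the lowest and the highest probe of a gene ran from 0.44 in NOD to 0.90 in B6toNOD. Probes of related genes and of their processed pseudogenes can bind each other's RNA, which adds doubt for the closely related hnRNPs.

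**Figure D5:**
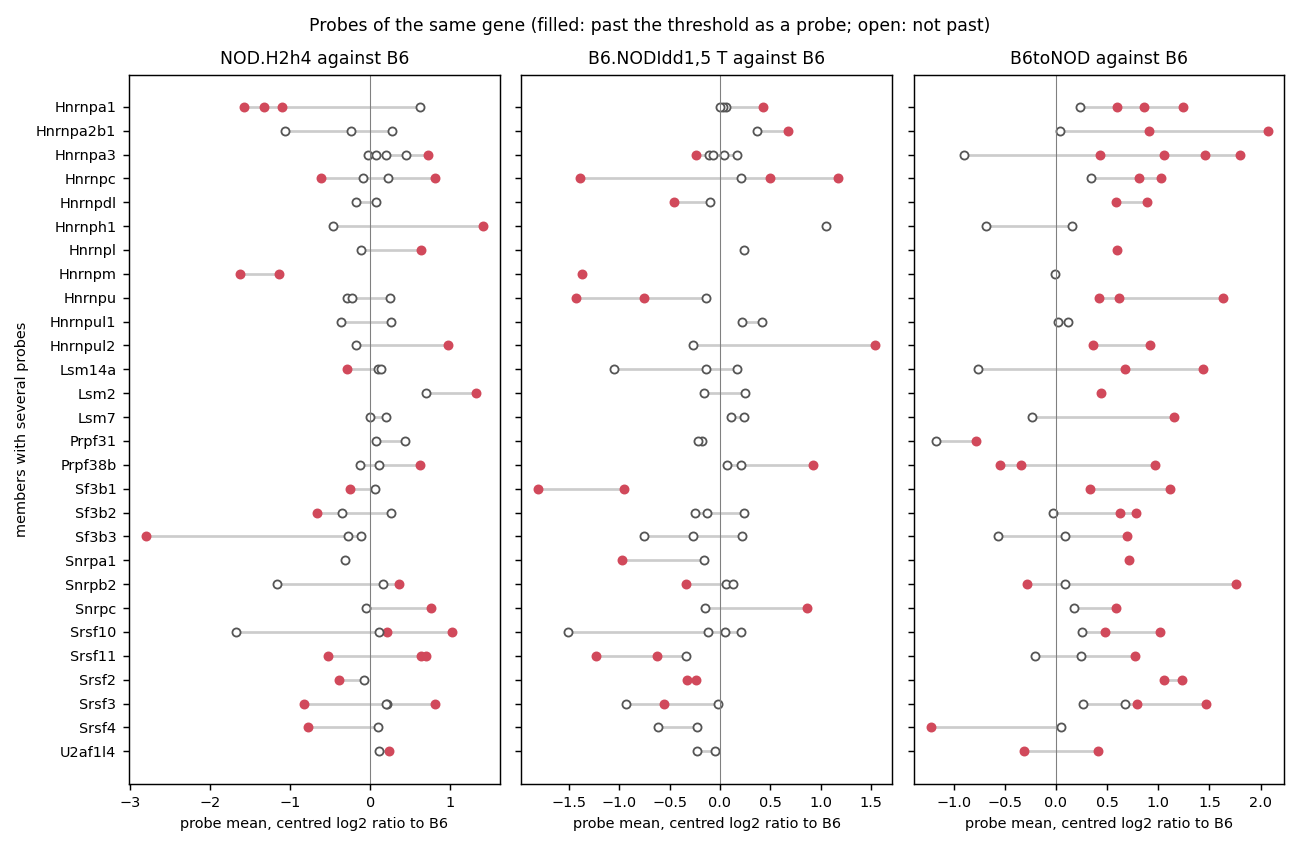
Group mean of each probe (horizontal axis, centred log2 ratio to B6) for members with several probes (rows) in 3 groups, filled where the probe was called and open where not, with grey lines joining probes of a gene. Both Sf3b1 probes are filled below 0 in B6.NODIdd1,5 T cells, and Hnrnpc has filled probes on both sides of 0 there.

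The NOD intervals of B6.NODIdd1,5 mice lie on chromosomes 17 (Idd1) and 1 (Idd5). Of the members, Sf3b1, Snrpe and Hnrnpu are on chromosome 1 and Lsm2, Srsf3, Snrpc, Hnrnpll and Hnrnpm on chromosome 17. In B6.NODIdd1,5 T cells 2 of the 3 on chromosome 1 (Sf3b1 and Hnrnpu) and 1 of the 5 on chromosome 17 (Hnrnpm) were called, each lower, beside 13 of 51 on other chromosomes. In kidney 2 of 3 (1 higher and 1 lower), 1 of 5 (higher) and 14 of 53 were called. Of all features, 30.3% were called in these T cells and 33.5% in kidney. Called members on chromosome 1 were 1 of 3 in NOD and in NOD.H2h4, 2 of 3 in NODtoB6 and 3 of 3 in B6toNOD. On chromosome 17 they were 1 of 5, 3 of 5, 1 of 4 and 2 of 5 in these groups, in that order. The bounds of the intervals were not used here, so whether these genes lie inside them was not analysed here.

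Of 186 other splicing genes listed by function, 144 were on the array. In B6toNOD 45 of 143 tested were higher and 16 lower (31.5% and 11.2%, beside 28.5% and 22.9% of all features), with a median of 0.17, so the share higher was near the background. NOD T cells gave 8 higher and 2 lower of 144 (5.56% and 1.39%, beside 9.79% and 2.46%). NOD.H2h4 gave 24 and 32 of 144 (16.7% and 22.2%, beside 24.1% and 15.4%). B6.NODIdd1,5 T cells gave 13 and 36 of 142 (9.15% and 25.4%, beside 14.4% and 15.9%), and kidney 19 and 19 of 143 (13.3% each, beside 22.4% and 11.1%). NODtoB6 gave 11 and 11 of 139 (7.91% each, beside 13.8% and 13.1%). SR protein kinases, which switch SR proteins by phosphorylation, had 0 of 9 higher and 4 lower in B6.NODIdd1,5 T cells. Assembly factors that load Sm rings on snRNA had 0 of 13 higher and 4 lower there, and 0 and 5 in NOD.H2h4. These assembly factors had 3 higher and 0 lower in kidney and 3 and 2 in B6toNOD, where the kinases had 3 and 1. The remaining lists in B6.NODIdd1,5 T cells were mixed. Higher and lower calls were 1 and 7 of 15 helicases, 7 and 9 of 40 other spliceosome subunits and 3 and 12 of 41 other regulators. Genes of the exon junction complex, export and 3' end processing had 2 and 0 of 24.

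Some of these genes had larger called values in B6.NODIdd1,5 T cells than the members, whose largest there was that of Sf3b1. Prmt5, which methylates Sm proteins before ring assembly, read -1.87 and -1.63 in B6.NODIdd1,5 T cells and between -0.51 and 0.48 on the other 10 arrays. Its mean was -1.75 ± 0.14 (adjusted p = 0.000141). Sap18, a partner of splicing regulators in the exon junction complex, read -1.72 and -1.86 in the same cells and was at -1.79 ± 0.090 (adjusted p = 2.49e-05). Mbnl3, a muscleblind splicing regulator, read 2.92 and 2.13 there (2.52 ± 0.19, adjusted p = 0.000611), and Cpsf1, the large subunit of the complex that reads the polyadenylation signal, read 2.50 and 2.37 (2.43 ± 0.13, adjusted p = 2.58e-05). Each of these 4 stayed with any 1 array left out.

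Tia1, which binds uridine-rich RNA next to splice sites, read 1.2 and 1.24 in NOD and 1.13 and 1.30 in NODtoB6. Its means were 1.22 ± 0.096 (adjusted p = 0.000537) and 1.22 ± 0.096 (adjusted p = 0.000243). Tia1 also read 1.01 and 0.94 in B6toNOD, and from -0.46 to 0.72 in the remaining groups. Dhx8, the helicase that frees spliced mRNA, read 1.35 and 1.30 in NOD.H2h4 (1.32 ± 0.083, adjusted p = 9.96e-05), and Ppih, a tri-snRNP cyclophilin, read 1.64 and 1.63 (1.64 ± 0.19, adjusted p = 0.000789). Dhx8 also read 1.31 and 1.21 in B6toNOD, but -3.50 on NODtoB6 replicate 2, with no value on replicate 1. Nxf1, the main mRNA export receptor, read 1.39 and 1.58 in B6toNOD, above the other 10 arrays, at 1.49 ± 0.096 (adjusted p = 2.01e-05). In NODtoB6, Zmat2 was higher (1.52 ± 0.14, adjusted p = 0.000461) and Pabpn1, the nuclear poly(A) binding protein, lower (-1.12 ± 0.15, adjusted p = 0.00261). Zmat2 also read 2.13 and 1.56 in B6.NODIdd1,5 T cells, 0.93 and 0.88 in B6toNOD and -0.73 and -0.62 in NOD.H2h4. Rnpc3, a protein of the minor spliceosome, read 3.19 and 2.66 in NOD and 3.01 and 2.98 in NODtoB6, and these calls ended without either array of the group. It also read 2.02 and 2.01 in NOD.H2h4, where it was called higher, and 1.62 and 1.46 in B6toNOD. B6.NODIdd1,5 T cells read -0.52 and 2.46, and kidney 0.74 and 0.77.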

How the data were processed

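RNA was measured on 12 cDNA arrays with 2 channels, in 6 groups of 2 taken from the titles. The authors deposited log2 ratios, experimental over B6 channel per the labels. Upstream tools were not given in the sources used here. Spot intensities are not analysed here. Values at the log2 of a ratio of 100000 (146 cells, 1 on a member probe) were treated as missing, probes were averaged per gene (symbols updated through RefSeq, 12850 of 13033 single-symbol probes found) and arrays were centred on their medians over 16411 features. Group means were fitted with limma 3.58.1 (lmFit, eBayes, R 4.3.3, 6 residual degrees of freedom), adjusted by Benjamini-Hochberg over all features tested. Testing a feature needed a value on each array compared. The fit was checked on simulated data. The number of arrays limits the precision. Members and lists were chosen with earlier results of these data known. Members named were drawn, by comparison, from up to 12 called in each direction whose arrays share a sign. Also drawn on were the widest and narrowest of each family and members called in 4 groups or in both directions. Other splicing genes were drawn from 3 per direction in each comparison. Not every gene or call so listed is given, so a call left unmentioned does not mean that none was made. Other members were named after their values were seen. Alternatives changed the centring, the scaling, the arrays or the probes used.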

Additional observations from a re-analysis of the deposited data

Results flagged for a closer look

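Some members were called in opposite directions in 2 groups and also differed between those groups in limma. The difference uses the same arrays and spread as the 2 calls, so it adds no separate support. In NOD.H2h4 minus NOD these were Snrpd1 (-1.35) and Srsf5 (-1.38), lower in NOD.H2h4 and higher in NOD. In B6.NODIdd1,5 T cells minus NOD they were Srsf5 (-1.80), Sf3b1 (-1.76), Snrpd1 (-1.54) and Hnrnpdl (-0.83), lower in the congenic T cells and higher in NOD. In NODtoB6 minus B6toNOD they were Snrpe (-1.71), Hnrnpr (-1.23), Hnrnpdl (-1.21) and Srsf11 (-0.89), lower in NODtoB6 and higher in B6toNOD. Srsf5 and Snrpd1 appear in both strain differences, which share the NOD arrays. The marrow differences assume that both marrow groups ran with the same dyes. As deposited, NOD had 0 members called higher, and in B6toNOD Hnrnpr was at -0.019 and Srsf11 at -0.46.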

How the results depend on the processing

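Of 205 member calls in the 10 comparisons, 91 stayed with each array left out in turn, 56 stayed under every alternative run, and 39 changed sign under 1 or more. Of 59 calls of other splicing genes, 32 stayed with each array left out. Leaving out single arrays gave 27 to 41 called members in B6toNOD, 14 to 21 in the congenic T cells, 3 to 12 in NOD, 8 to 20 in kidney, 15 to 30 in NOD.H2h4, 7 to 19 in NODtoB6, 5 to 21 in NOD.H2h4 minus NOD, 12 to 19 in B6.NODIdd1,5 T cells minus NOD, 5 to 15 in B6.NODIdd1,5 T cells minus kidney and 23 to 34 in NODtoB6 minus B6toNOD. As deposited, called members numbered 1 in NOD, 45 in NOD.H2h4, 27 in kidney, 9 in NODtoB6, 20 in NODtoB6 minus B6toNOD, 10 in B6.NODIdd1,5 T cells minus NOD and 1 in B6.NODIdd1,5 T cells minus kidney. After scaling they numbered 24 in B6toNOD, 26 in NOD, 11 in NOD.H2h4 minus NOD, 27 in B6.NODIdd1,5 T cells minus NOD and 19 in NODtoB6 minus B6toNOD. With each probe on its own, 25 members had a called probe in the congenic T cells, 30 in kidney, 26 in the T cells minus NOD and 20 in the T cells minus kidney. On spleen T cell arrays alone NOD had 6. Averaging only probes measured on all 12 arrays, an alternative chosen after seeing the data like the turned patterns across groups, gave 25 in the congenic T cells. Same-numbered arrays did not deviate together (15 pairs of groups, r = -0.036 to 0.022, none over 0.1). With the replicate number as a block, called members numbered 38 in B6toNOD, 14 in NODtoB6, 10 in NOD, 17 in kidney, 26 in NOD.H2h4, 15 in the congenic T cells, 16 in NOD.H2h4 minus NOD, 13 in the T cells minus NOD, 9 in the T cells minus kidney and 34 in NODtoB6 minus B6toNOD. As deposited these called values turned: in B6toNOD Hnrnpa0 -0.32, Hnrnpc -0.0084, Hnrnpd -0.36, Hnrnpr -0.019, Lsm2 -0.38, Lsm7 -0.27, Sf3b1 -0.011, Sf3b2 -0.28, Snrpb2 -0.21, Snrpc -0.36, Snrpd2 -0.21, Srsf10 -0.15 and Srsf11 -0.46; in NOD.H2h4 Hnrnpa0 -0.40, Hnrnpr -0.33, Lsm3 -0.27, Lsm8 -0.52, Sf3a2 -0.22, Sf3b5 -0.45, Snrpc -0.46, Snrpe -0.019 and Srsf11 -0.54; in kidney Hnrnpc -0.20, Hnrnpf -0.14, Prpf4 -0.15 and U2af1l4 -0.14. The same held in NOD.H2h4 minus NOD for Lsm3 -0.13, Prpf4b -0.23 and Snrpe -0.066, in NODtoB6 for Lsm3 -0.0095 and in NODtoB6 minus B6toNOD for Prpf4 0.053 and Sf3b5 0.18. Against the mean of the other groups, B6.NODIdd1,5 T cells had Prpf4b -0.0017 and Sf3a2 -0.27, kidney Sf3a2 -0.035, NOD Snrpb -0.084 and NODtoB6 Lsm3 -0.0046, Prpf4b -0.10 and Snrpg -0.058, each of the turned sign. After scaling Hnrnpm turned to 0.25 in NOD.H2h4 minus NOD. The cause was not tested, except that values as deposited lack the centring shift. With 2 arrays per group and no array with exchanged dyes, a dye effect of single genes cannot be told apart from a difference from B6, and signal over background is unknown.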
